A study of Equus caballus with 12 samples.

Results

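The miRNAs described here are miR-143 (eca-miR-143) and miR-145, known from smooth muscle, and miR-199a-5p, miR-199b-5p and miR-214, known from fibroblasts and other mesenchymal cells. They were chosen by name, as every known horse miRNA called miR-143, miR-145, miR-199 or miR-214 with any letter or arm, which gave 5 of the 294 known horse miRNAs and of the 629 entries in the table. Other arms of these miRNAs were not analysed here. Small RNA was sequenced from the left ventricle of the heart, the caudal part of the right lung and the right part of the liver of 4 healthy Polish cold-blooded stallions, 1 to 2 years old, numbered 27, 30, 32 and 34. There was 1 library per tissue and horse, so the 12 libraries fall into 3 groups of 4, and the groups differ in tissue only. The tissue pieces were taken whole at the slaughterhouse and kept in RNA Later, without any sorting of cells.

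A miRNA is a short RNA that binds matching sites in messenger RNAs and lowers their translation or stability. miR-143 and miR-145 are made from a shared precursor transcript and help to keep vascular smooth muscle cells in their contractile state. miR-199a and miR-214 are likewise made together, from a transcript antisense to a dynamin gene, are active in mesenchyme during development, and have been studied in heart and liver fibrosis. In the RefSeq annotation of the horse (assembly TB-T2T, used for names and neighbours only), no gene lies between MIR143 and MIR145. No gene lies between MIR199A and MIR214 either, and both are inside the span of DNM3. MIR199B is on another chromosome, inside the span of DNM1.

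The values are read counts that the authors normalized with DESeq2, called normalized counts below. Each read is a whole mature miRNA, so levels need no correction for length, although adaptor ligation can favour some sequences. The table holds 3536536 to 7560746 reads per lung library, 8113895 to 9355513 per heart library and 3066869 to 8595569 per liver library. These read numbers were derived from the values and the minimum read count of 6. Each of the 5 miRNAs had at least 653 reads in every library, so counting error was small beside the differences between horses. The tissues carried their own miRNAs: the 7 striated muscle miRNAs in the table summed to 5460483 to 8414016 normalized counts per heart library and at most 12571.8 elsewhere. The 5 hepatocyte miRNAs summed to 1348482 to 1902402 in liver and at most 280577 elsewhere, and the 6 epithelial miRNAs to 66725 to 83599.7 in lung and at most 7499.8 elsewhere.

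miR-143 was among the most abundant miRNAs of all 3 tissues and, in normalized counts, was lowest in liver. In lung it stood at 143865, 196994, 259613 and 141190.4 normalized counts in horses 27, 30, 32 and 34. The heart values were 146473, 218998, 256800.3 and 250669 in the same order, and the liver values 101199, 150629, 54247 and 77252. Lung and heart covered nearly the same range, and only the liver of horse 30 reached into it. By abundance, miR-143 ranked between 4 and 7 among the known miRNAs of the lung libraries, 9 or 10 in heart and between 7 and 15 in liver. It took 3.03 to 5.16% of the known miRNA counts in lung, 1.45 to 2.49% in heart and 1.25 to 3.12% in liver. The mean share was 1.86% in heart and 1.90% in liver, so by share liver was not the lowest.

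miR-145, its neighbour in the genome, was far less abundant and followed miR-143 only in part. The lung values were 9796, 13277.6, 15199 and 7769 normalized counts in horses 27, 30, 32 and 34. Those of heart were 16099.8, 11121, 10124 and 3609, and those of liver 8671, 6319, 4862 and 5158. The heart of horse 34 had the lowest value of all 12 libraries and the heart of horse 27 the highest, so heart covered the whole range of the other tissues. That low value rests on 2145 reads in a library of 9107448, so it is not a matter of few reads. The share of miR-145 among known miRNA counts was 0.204 to 0.302% in lung, 0.0238 to 0.160% in heart and 0.0932 to 0.156% in liver.

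miR-199a-5p was as abundant as miR-143 and, in the deposited values, differed little between tissues. It stood at 138039.7, 137367, 120774 and 116874 normalized counts in the lungs of horses 27, 30, 32 and 34. The heart values were 195632, 164418, 185451 and 142436, and the liver values 191363, 141726, 107299 and 112764. All heart values lay above all lung values, while liver overlapped with both, its highest value in horse 27 and its lowest in horse 32. The order depended on the scaling. As a share of known miRNA counts, miR-199a-5p took 2.40 to 3.12% in lung, 0.941 to 1.94% in heart and 2.04 to 3.45% in liver. By share, every heart library thus lay below every lung and liver library. miR-199a-5p ranked between 5 and 16 among known miRNAs in all 12 libraries. miR-199b-5p, counted under its own name and encoded on another chromosome, averaged 63143 ± 5412 in lung, 84481 ± 11557 in heart and 67765 ± 18946 in liver (SD, n = 4). Its order of libraries was that of miR-199a-5p within each tissue.

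miR-214, the partner of miR-199a, had the lowest level of the 5 by a wide margin. It stood at 1355, 1556, 809 and 911 normalized counts in the lungs of horses 27, 30, 32 and 34. In heart it was 2943, 1792, 1645 and 1262, and in liver 1208, 1008, 756 and 1032. Every heart value lay above every liver value, and the heart of horse 27 stood highest, while lung overlapped with both other tissues. As a share of known miRNA counts, heart (0.00834 to 0.0292%) and liver (0.0174 to 0.0218%) overlapped. Its rank was between 65 and 106 among the known miRNAs.

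**Figure D1:**
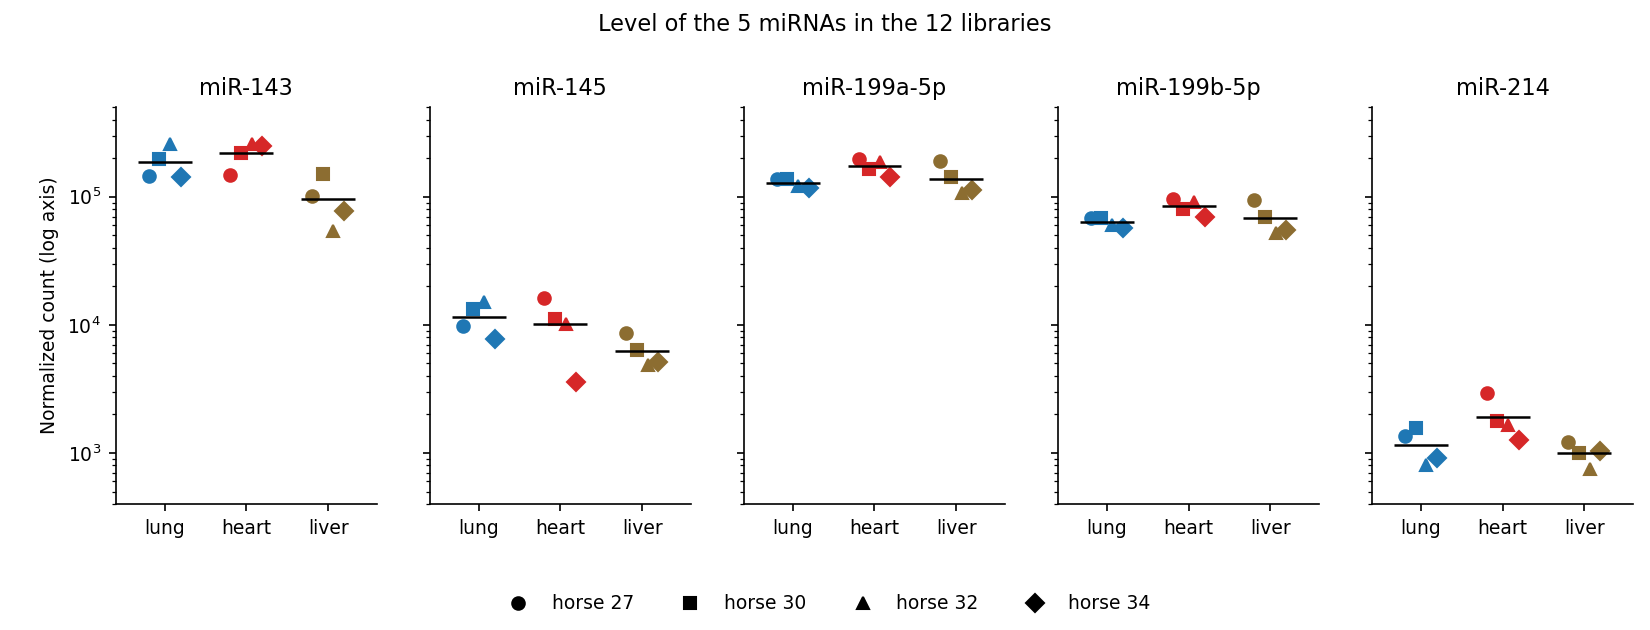
Normalized counts (y axis, log scale) of the 5 miRNAs in the 4 lung, 4 heart and 4 liver libraries (x axis). Each point is a library, with a marker for each horse, and the line is the mean of the tissue. miR-143 is lowest in liver (mean 95832 against 185416 in lung and 218235 in heart), and miR-145 spreads most in heart, from 3609 to 16099.8.

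The question of the comparisons was which miRNAs differ between the tissues. The test was limma's, fitted to log2(normalized count + 1) of the 256 known miRNAs that reached 10 normalized counts in 4 or more libraries, and all 5 miRNAs were among them. A call needed an adjusted p (Benjamini-Hochberg) below 0.05 together with a log2 fold change of 1 or more in either direction. In bulk tissue, fewer cells of a type and less RNA per cell cannot be told apart. The scaling of the libraries matters, because muscle miRNAs take most of the heart counts: when every library was given the same total (CPM), the median log2 fold change over the 256 miRNAs shifted by 1.24 for lung versus heart, by 0.15 for lung versus liver and by -1.16 for heart versus liver.

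miR-143 was upregulated in heart versus liver. It averaged 218235 ± 50628 normalized counts in heart and 95832 ± 41256 in liver (SD, n = 4), 2.28-fold higher in heart, and was higher in the heart of all 4 horses. The log2 fold change from limma reached 1.25 (standard error, SE, 0.32, adjusted p = 0.00661), where the median of all tested miRNAs was -0.23. With CPM values the log2 fold change was 0.04 and the call ended (adjusted p = 0.919), and the median then lay at -1.39. Relative to that median, miR-143 stood 1.48 higher as deposited and 1.42 higher with CPM values. CPM scaling moves all miRNAs of a library by nearly the same amount, so these 2 values are alike by construction. They do not test whether the difference holds with CPM values. The call also ended without horse 32 (0.92, adjusted p = 0.0448, below the fold minimum) and without horse 34 (1.11, adjusted p = 0.0518).

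The other miRNAs were not called in heart versus liver. miR-214, 1.91-fold higher in the mean of heart, had an adjusted p of 0.0283 from limma at a log2 fold change of 0.88 (SE 0.30), below the fold minimum. miR-145 had a log2 fold change of 0.56 (SE 0.42, adjusted p = 0.265). Without the heart of horse 34 it just reached the fold minimum (adjusted p = 0.0160, limma), and both it and miR-214 (1.06, adjusted p = 0.0144) were called. miR-199a-5p and miR-199b-5p had log2 fold changes of 0.34 and 0.35 (adjusted p = 0.154 and 0.153, limma). With CPM values, miR-145, miR-199a-5p, miR-199b-5p and miR-214 all turned to the other side, at -0.65, -0.87, -0.87 and -0.33. So 1 of the 5 was called in this comparison, where 46.9% of all tested miRNAs were called and 19.9% were called higher in heart. With no fold minimum, miR-143 and miR-214 passed, against 53.5% of all tested. With TMM scaling these same 2 names were called (46.5% of all tested), and with CPM values none (64.1%). In the deposited values, the tissues did not overlap for 1 of the 5, miR-214, against 52.3% of all tested.

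In lung versus liver, the log2 fold changes of miR-143 and miR-145 lay near 1 and those of the other 3 miRNAs near 0. miR-143 was upregulated in lung at 185416 ± 55742 against 95832 ± 41256 normalized counts, 1.93-fold higher and higher in the lung of all 4 horses. Its log2 fold change of 1.01 (SE 0.32, adjusted p = 0.0200 from limma) lay just above the fold minimum. miR-145 was close to it, at 11511 ± 3350 against 6252 ± 1731 and again higher in the lung of all 4 horses. Its log2 fold change of 0.87 (SE 0.42) did not pass (adjusted p = 0.0972), and it was 1.04 with CPM values (adjusted p = 0.0850).

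miR-199a-5p averaged 128264 ± 11019 in lung and 138288 ± 38473 in liver, and its log2 fold change was -0.07 (SE 0.20, adjusted p = 0.799 from limma). The values of miR-199b-5p were -0.07 (adjusted p = 0.814), and miR-214 had 0.18 (SE 0.30, adjusted p = 0.669). With CPM values the 2 miR-199 names turned to 0.10 and 0.11. In this comparison 1 of the 5 miRNAs was called, against 51.6% of all tested, 25.0% being called higher in lung. With CPM values miR-143 was again the 1 called (log2 fold change 1.18, adjusted p = 0.00477), against 52.0%. None of the 5 was without overlap between lung and liver, against 52.7% of all tested. The miR-143 call in lung versus liver was lost when single libraries were left out, at log2 fold changes of 0.96 without lung 30 (adjusted p = 0.0478, limma), 0.83 without lung 32 (0.0610), 0.77 without liver 32 (0.0592) and 0.94 without liver 34 (0.0501). Leaving out all libraries of horse 32 (0.59, adjusted p = 0.163) or of horse 34 (1.05, 0.0566) ended it too.

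Levels of miRNAs from other cell types followed miR-143 in part. The 3 endothelial miRNAs in the table summed to 336150 to 681325 normalized counts in lung, 144408 to 553620 in heart and 114762 to 181135 in liver, and none was at 0 in a tissue. As a share of known miRNA counts they took 8.21 to 13.5% in lung, 1.43 to 3.66% in heart and 2.64 to 3.27% in liver. By share, heart and liver thus overlapped. All 3 endothelial miRNAs were called higher in lung versus liver, where 25.0% of all tested were. For heart versus liver, 19.9% of all tested were called higher and 27.0% lower in heart. In heart versus liver, miR-221 and miR-222 were called lower in heart (log2 fold changes of -1.89 and -1.99), against miR-143, and miR-126-5p, which makes up most of the sum, was not called (0.97, adjusted p = 0.0467, limma). The red blood cell miRNAs, 2 of the 3 listed being in the table, had the order of miR-143 in the deposited values, with sums of 66906.0 to 160133 per heart library, 25239 to 66840.1 per lung library and 4149.8 to 6888 per liver library, and 1 of them was at 0 in every heart. By share, the red blood cell miRNAs of heart (0.561 to 1.11%) and lung (0.506 to 1.41%) overlapped. The leukocyte miRNAs (5 of 8 in the table, none at 0) summed to 30464 to 89300.2 in lung, 11350.3 to 13414 in heart and 12462 to 21814 in liver. Their sum was not higher in heart than in liver, and their share was lower in heart (0.0848 to 0.133%) than in liver (0.241 to 0.394%). In lung versus liver, 4 of the 5 were called higher in lung and 0 lower. Single members differed between heart and liver. In heart versus liver, miR-150 and miR-342-5p were called higher in heart (log2 fold changes of 2.21 and 3.65, limma) and miR-146a lower (-2.03). miR-142-5p and miR-155 were not called. These calls are from the deposited values. The 5 hepatocyte miRNAs were high in liver, as given above. The part of these cell types in the miR-143 difference was not tested.

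None of the 5 miRNAs was called in lung versus heart by limma, where 38.7% of all tested miRNAs were called. miR-214 alone had an unadjusted p under 0.05 (log2 fold change -0.70, SE 0.30, adjusted p = 0.0762). It averaged 1157 ± 356 in lung and 1911 ± 724 in heart and was lower in the lung of all 4 horses. miR-199a-5p was likewise lower in the lung of all 4 horses, at -0.42 (SE 0.20, adjusted p = 0.103, limma), and miR-199b-5p at -0.41 (adjusted p = 0.108). Lung and heart did not overlap for these 2 names, against 44.5% of all tested miRNAs. miR-143 had a log2 fold change of -0.25 (SE 0.32, adjusted p = 0.556) and miR-145 of 0.31 (SE 0.42, adjusted p = 0.569).

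The direction in lung versus heart rested on the scaling for 4 of the 5. With CPM values, miR-143, miR-199a-5p, miR-199b-5p and miR-214 turned to 1.14, 0.97, 0.97 and 0.68, and miR-145 rose to 1.70, with miR-143 and miR-145 called (adjusted p = 0.00496 and 0.00840, limma), as were 54.7% of all tested. Relative to the median of all tested miRNAs, which CPM moved by 1.24, miR-143 stood at -0.25 as deposited and -0.10 with CPM values, and miR-145 at 0.31 and 0.46. On that footing miR-199a-5p was at -0.42 and -0.27 and miR-214 at -0.70 and -0.55. Such relative values change little with the scaling by construction, so they do not decide between the scalings.

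**Figure D2:**
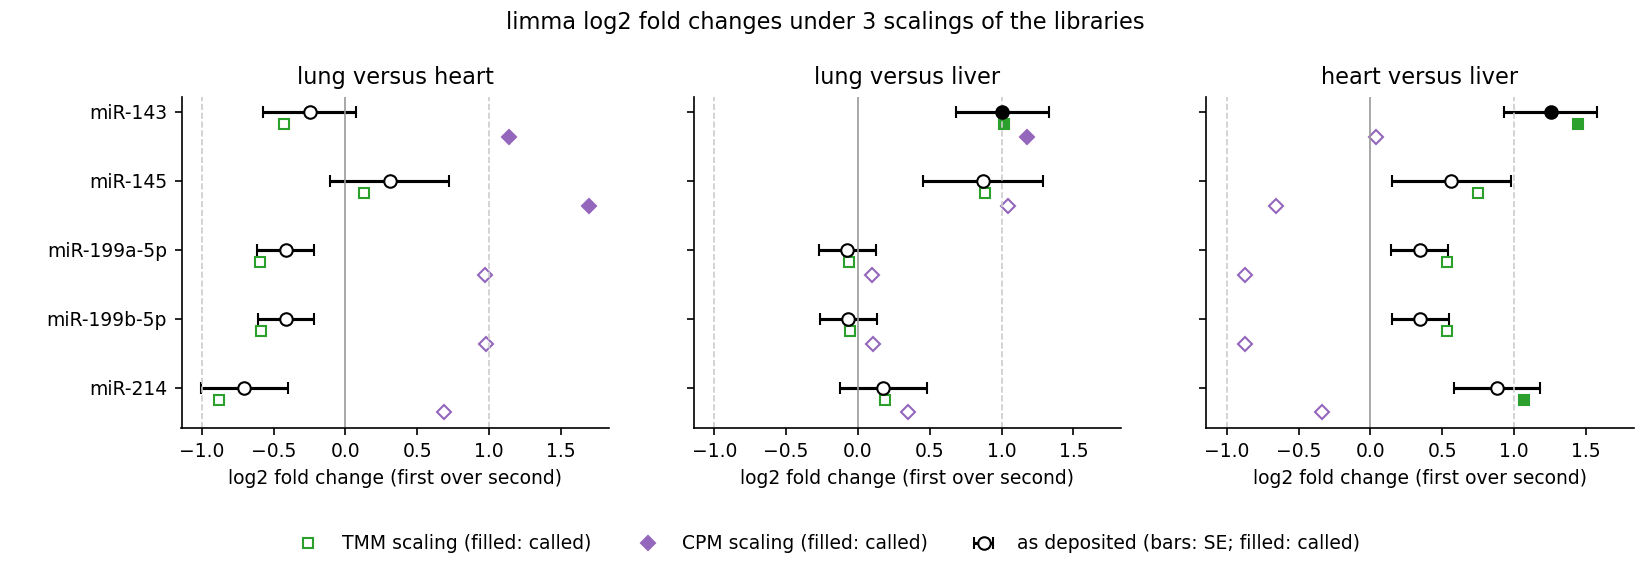
limma log2 fold changes (x axis) of the 5 miRNAs (y axis) in the 3 comparisons. Black circles are the deposited values with standard errors, green squares TMM scaling and purple diamonds CPM scaling, and filled symbols were called. In lung versus liver the scalings lie close together, while in both comparisons with heart the CPM values move away by more than 1, as for miR-143 in heart versus liver (1.25 as deposited and 0.04 with CPM).

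Set against all tested miRNAs, the 5 varied less between tissues than the median miRNA. The gap between the highest and the lowest tissue mean on the log2 scale was 1.25 for miR-143, 0.87 for miR-145, 0.42 for miR-199a-5p, 0.41 for miR-199b-5p and 0.88 for miR-214. The median gap of all 256 tested miRNAs was 2.27, and that of the 108 with a mean of at least 1000 was 1.83. In the deposited values, 11 of the 256 had a smaller gap than miR-199a-5p. With CPM values the gaps were 1.18 for miR-143, 1.69 for miR-145, 0.97 for miR-199a-5p and miR-199b-5p and 0.68 for miR-214, with a median of 2.20 over all tested, and 28 had a smaller gap than miR-199a-5p. The spread between horses within a tissue was also small for miR-199a-5p, with an SD of 0.26 on the log2 scale, where the median of all tested was 0.57. For miR-145 it was 0.63 and for miR-143 0.48. Of the log2 variation of miR-143 (as sum of squares), 62.6% lay between tissues, against 30.5% for miR-145, 39.5% for miR-199a-5p, 51.7% for miR-214 and a median of 73.2% over all tested miRNAs.

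The ratio of miR-143 and miR-145 to the miR-199 and miR-214 group is taken inside a library, so no scaling can change it. Summed normalized counts of miR-143 and miR-145 were 0.741, 1.02, 1.52 and 0.850 times those of the other 3 in the lungs of horses 27, 30, 32 and 34. In heart the ratio was 0.552, 0.932, 0.959 and 1.19, and in liver 0.384, 0.739, 0.368 and 0.488. Every lung ratio lay above every liver ratio, by a narrow margin at the liver of horse 30, and in all 4 horses both lung and heart exceeded the liver of the same animal. The means of the log2 ratio differed by 1.06 between lung and liver, 0.88 between heart and liver and 0.18 between lung and heart. The SD within a tissue was 0.45 in lung, 0.47 in heart and 0.46 in liver. These ratios are a description over chosen miRNAs and were not tested.

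The most abundant miRNA of each side gave nearly the same picture. miR-143 was 1.04 to 2.15 times miR-199a-5p in lung, 0.749 to 1.76 times in heart and 0.506 to 1.06 times in liver. With equal weight of each miRNA, the log2 difference between heart and liver was 0.38 in place of 0.88, that between lung and heart 0.54 in place of 0.18 and that between lung and liver 0.93 in place of 1.06. Here miR-199a-5p and miR-199b-5p each had a full weight, so their shared pattern counted for more than that of miR-214. Heart then lay nearer to liver than to lung, where with sums it lay nearer to lung. miR-145 to miR-214 is the ratio of the less abundant partners. It was 7.23 to 18.8 in lung, 2.86 to 6.20 in heart and 5.0 to 7.18 in liver. In all 4 horses it was highest in lung and lowest in heart, though heart and liver overlapped and lung cleared liver by little. In lung the value of 18.8 came from horse 32 and the other horses stood at 7.23 to 8.54.

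Within each side, the partners behaved differently. miR-143 exceeded miR-145 14.7- to 18.2-fold in the 4 lungs, a narrow range, and 11.2- to 23.8-fold in the livers. In the hearts of horses 27, 30, 32 and 34 the ratio was 9.10, 19.7, 25.4 and 69.5, so the horses differed more in heart than in either other tissue. miR-199a-5p exceeded miR-214 88.3- to 149-fold in lung, 66.5- to 113-fold in heart and 109- to 158-fold in liver. The SD of the log2 ratio over the 12 libraries was 0.76 for miR-143 to miR-145 and 0.37 for miR-199a-5p to miR-214. The median over all 15576 pairs of the 177 tested miRNAs above 0 in every library was 1.39.

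miR-199a-5p and miR-199b-5p stood in a fixed ratio. miR-199a-5p made up 66.96 to 67.20% of the reads of both names together in all 12 libraries, and the 95% Wilson interval of each library held the pooled share of 67.06%. For the library of the lung of horse 34, for example, the interval ran from 66.81 to 67.28%. These intervals cover counting error only. The ratio was 2.03 to 2.05, and the SD of its log2 value was 0.0042, below the 0.0068 that counting independent reads would give. It was the smallest SD of all 15576 pairs, and the next smallest, that of miR-501-5p and miR-502-5p, was 0.13. Both names differ in little sequence and may share reads, which was not tested, so the split between them is uncertain. Their values are not to be read as independent. Even so, both names are counted separately in the numbers given for the 5 miRNAs and in the ratio with equal weight. Counting miR-199a-5p alone beside miR-214 gave nearly the same log2 differences, 1.07 between lung and liver and 0.88 between heart and liver.

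**Figure D3:**
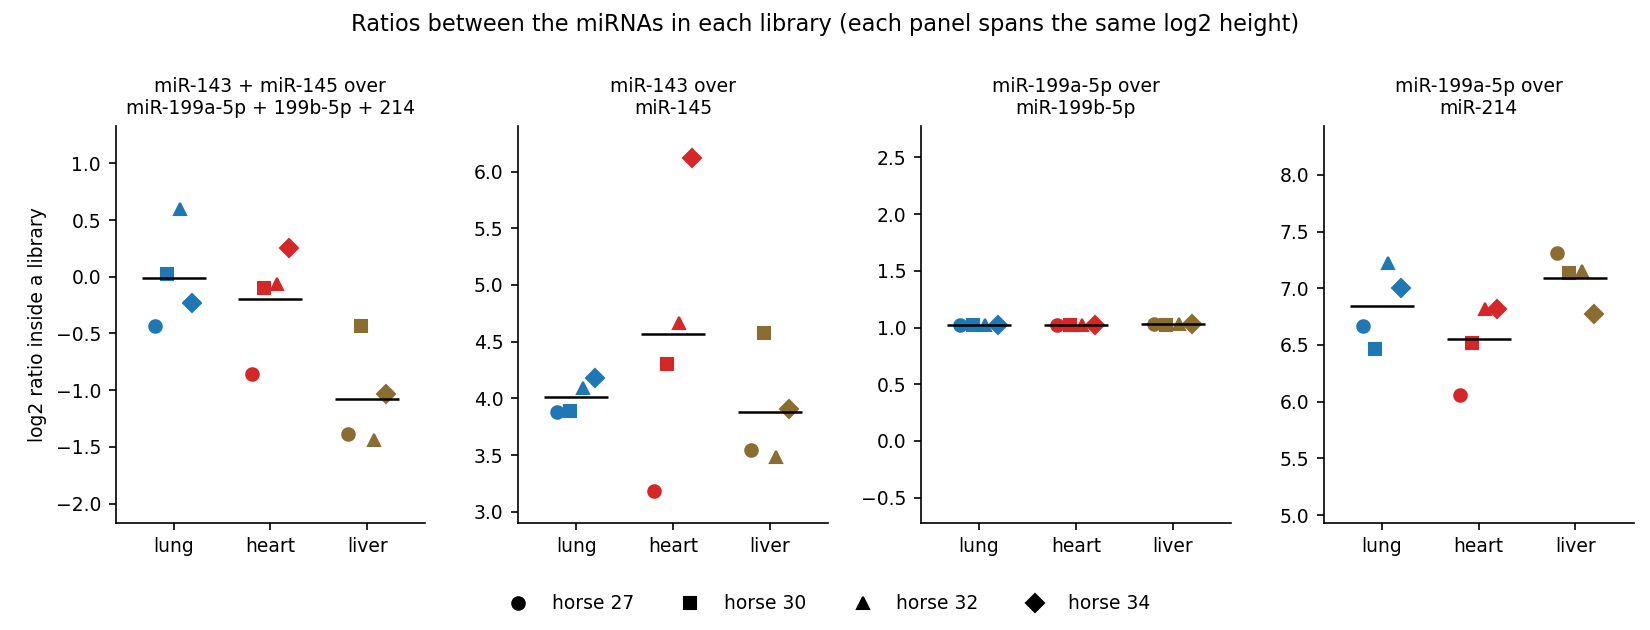
log2 ratios inside each library (y axis) for the 2 sides and for the partners within them, by tissue (x axis). Points are libraries with a marker for each horse, lines are tissue means, and every panel spans the same height. The ratio of miR-143 and miR-145 to the other 3 is lowest in liver, that of miR-143 to miR-145 spreads from 9.10 to 69.5 in heart, and that of miR-199a-5p to miR-199b-5p is flat at 2.03 to 2.05.

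Across the 12 libraries, the log2 level of miR-143 had a Pearson's r of 0.42 with miR-145, 0.38 with miR-199a-5p and 0.36 with miR-214. miR-199a-5p and miR-214 had an r of 0.79. These are descriptions over libraries that share 4 horses and 1 scaling. The known miRNAs most like miR-143 in log2 level were miR-1307 (r = 0.84), miR-27b (0.82), miR-24 (0.80), miR-7177b (0.80) and miR-454 (0.80), and with CPM values their r was 0.53 to 0.74. Of these, miR-27b and miR-24 are abundant and, like miR-143 in the deposited values, were lowest in liver. miR-27b averaged 143421 ± 15967 in lung, 240682 ± 32088 in heart and 43845 ± 7236 in liver. miR-1307 was uneven in liver, at 612 ± 714 normalized counts. Its correlation with miR-143 by rank (Spearman's rho) was 0.70, and its r with CPM values 0.53. Those most like miR-199a-5p were miR-490-5p (0.70), miR-212 (0.68), miR-1307 (0.66), miR-592 (0.66) and miR-132 (0.65). Their r with CPM values ran from -0.65 to 0.55, so this likeness did not outlast the change of scale for miR-592, miR-490-5p and miR-1307. Some of them were scarce. In lung and liver, miR-592 had a mean of 0 and miR-490-5p means of 14.6 and 6.07, and miR-212 averaged 10.6 to 16.9 across the tissues.

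Other miRNAs of stromal cells, such as fibroblasts and vascular wall cells, showed larger differences. Of the 21 on a list of such miRNAs, 18 were in the table and all 18 were tested. Many of them are also made by other cells of these organs. In lung versus liver, 9 of the 18 were called higher and 2 lower in lung, against 25.0% and 26.6% of all tested, with a median log2 fold change of 1.03 (all tested 0.08). For heart versus liver, 8 were called higher and 4 lower in heart, against 19.9% and 27.0%, and the median was 0.84 (all tested -0.23). Between lung and heart, 7 were called higher and 3 lower in lung, against 19.5% and 19.1%, at a median of -0.11 (all tested 0). With CPM values the counts were 9 higher and 1 lower in lung versus liver, 4 higher and 7 lower in heart versus liver (median -0.38) and 10 higher and 1 lower in lung versus heart (median 1.28), so the medians in both comparisons with heart turned. Summed per library in the deposited values, the 18 were highest in heart, at 1370756 to 1926816 normalized counts, where lung libraries had 844990.3 to 1029315 and liver libraries 567083 to 708352. As a share of the known miRNA counts they were instead highest in lung, at 20.5 to 22.2%, with 12.7 to 14.7% in heart and 11.4 to 14.7% in liver.

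The most abundant of them parted the tissues in different ways. miR-100, which restrains growth signalling through mTOR, averaged 592221 ± 169919 in heart and 40804 ± 7332 in liver (SD, n = 4), and limma gave 3.84 on the log2 scale (adjusted p = 1.03e-07). The related miR-99a averaged 314779 ± 119999.5 in heart and 124790 ± 44452 in lung, and was lower in lung than in heart (log2 fold change -1.34, adjusted p = 0.0118, limma), although with CPM values the log2 fold change was 0.05 and not called. miR-21, known from fibrosis, had the opposite order. It averaged 243607 ± 73109 in lung and 44288 ± 5261 in heart, and limma gave 2.43 on the log2 scale for lung versus heart (adjusted p = 2.13e-06).

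The largest called change of the list in lung versus liver was that of miR-195, an inhibitor of the cell cycle, at 16656 ± 7531 against 3261 ± 1710 (log2 fold change 2.34, adjusted p = 0.00221, limma). In both comparisons with heart it was that of miR-503, made with miR-424 from a shared transcript. miR-503 was listed at 0 in the heart of horse 30 and at 46.0, 34.7 and 18.5 normalized counts in the hearts of horses 27, 32 and 34, and averaged 184 ± 99.2 in lung and 707 ± 203 in liver. The size of its fold changes depends on the pseudocount, since 1 heart library is at 0. Its log2 fold changes were 3.59 in lung versus heart and -5.68 in heart versus liver (adjusted p = 0.0126 and 0.000533, limma). The changes of the 5 miRNAs, from -0.70 to 1.25, lay inside the range of the list in every comparison. With CPM values miR-100, miR-21, miR-195 and miR-503 kept the direction of the changes given here.

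**Figure D4:**
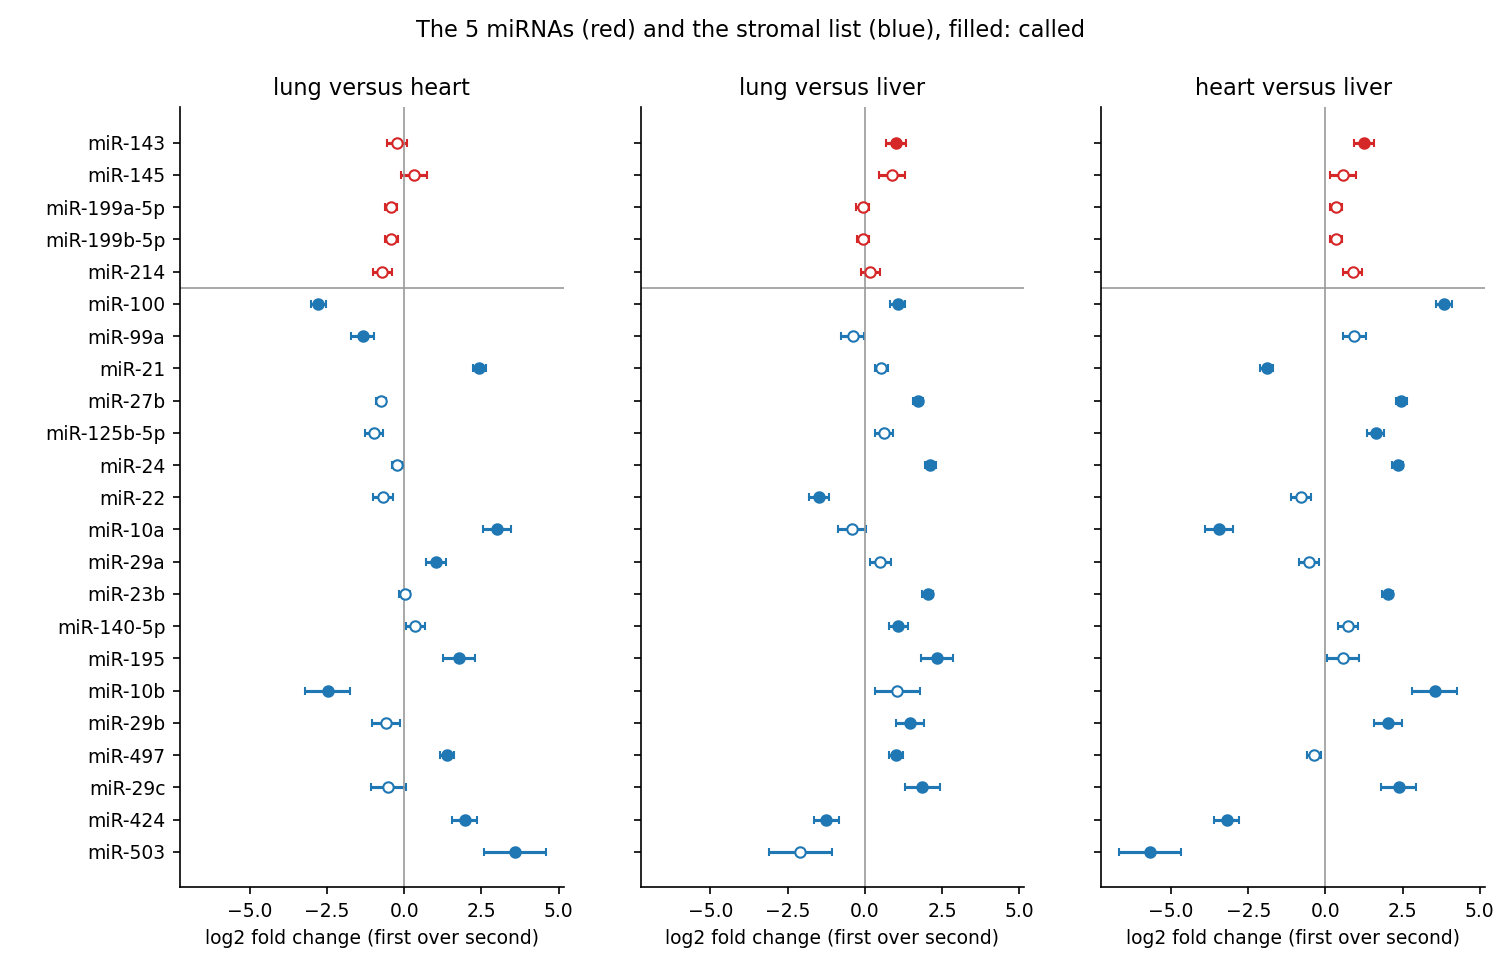
limma log2 fold changes with standard errors (x axis) for the 5 miRNAs in red and, below them and ordered by mean level, the 18 tested miRNAs of the stromal list in blue (y axis), in the 3 comparisons. Filled points were called. The red points stay between -0.70 and 1.25, while the blue ones run from -5.68 for miR-503 to 3.84 for miR-100 in heart versus liver.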

How the data were processed

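Small RNA was measured in 12 libraries, 4 each of heart, lung and liver. By the study's methods, the authors trimmed reads with Trim Galore, counted them with sRNAbench (miRBase and EquCab3.0, at least 6 reads) and normalized them with DESeq2. The submitters' processing notes name Trimmomatic and BWA instead, without versions. The deposited values are a signal, the authors' counts divided by a size factor per library. All were whole multiples (within 0.01) of the lowest value above 0 divided by 6, which gave the reads per library. The table's columns of the authors' own comparison (fold change, standard error, statistic and p-values) were not used.

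The values were tested with limma 3.58.1 in R 4.3.3 on log2(normalized count + 1), fitting 3 tissue means to the 12 libraries with a trend in the variance. The fit was checked on simulated data. Other steps used Python 3.11.15 with pandas 2.3.3. Libraries with the same number are from 1 animal and thus paired, but deviations from tissue means correlated at a median of -0.06 for the 12 pairs of the same horse, so the horse block is an alternative. Other alternatives were the pseudocount, the filter, CPM and TMM scaling, no fold minimum, and leaving out horses or libraries. The planned tests on reads (edgeR, DESeq2) were not run, since the reads were only derived here from normalized values. The miRNAs and lists were chosen with earlier results of these data known. All 5 miRNAs are named. Of the stromal list, the 4 with the highest mean and, per comparison, the called one with the largest change are named, and for likeness the 5 with the highest r.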

Additional observations from a re-analysis of the deposited data

Results flagged for a closer look

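The ratio of miR-145 to miR-214 in the lung of horse 32 stood apart from the other lungs, at 18.8 against 8.54 for the nearest of the 4. The gap took up 0.89 of the whole range, above Dixon's critical value at 95% for 4 samples. It was the only one of 33 groups of 4 libraries (5 miRNAs and 6 ratios in 3 tissues) to do so, where chance flags about 1 in 20. In that library miR-145 was the highest of the lungs (15199 normalized counts) and miR-214 the lowest (809). The flag depends on the scale. On the log2 scale the lung ratios of horses 27, 30, 32 and 34 were 2.85, 3.09, 4.23 and 3.09. There the gap falls just short of the critical value.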

How the results depend on the processing

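All 15 log2 fold changes of the 5 miRNAs kept their direction and their side of the threshold with a pseudocount of 0.5 or 10, and with no filter or one that needs all 4 libraries of any tissue. The horse as a replicate block changed no call of the 5 either, which left 0, 1 and 1 called in lung versus heart, lung versus liver and heart versus liver, among 97, 131 and 116 called miRNAs in place of 99, 132 and 120. CPM scaling turned 10 of the 15, with the 2 miR-199 names counted separately. In lung versus heart it gave 1.14 for miR-143, 0.97 for miR-199a-5p, 0.97 for miR-199b-5p and 0.68 for miR-214, with 2 called. In lung versus liver it gave 0.10 for miR-199a-5p and 0.11 for miR-199b-5p. In heart versus liver it gave -0.65 for miR-145, -0.87 for miR-199a-5p, -0.87 for miR-199b-5p and -0.33 for miR-214, with 0 called. The CPM changes go with a shift of the median of all tested miRNAs. The values relative to it are given above, and they differ little between scalings by construction. TMM scaling and dropping the fold minimum each left 2 called in heart versus liver.

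Leaving out a horse or a library gave 0 to 0 called in lung versus heart, 0 to 1 in lung versus liver and 0 to 3 in heart versus liver. The log2 fold change of miR-145 in lung versus heart ran from -0.13 (without the heart of horse 34) to 0.65. In lung versus liver, miR-199a-5p ran from -0.18 to 0.10 and miR-199b-5p from -0.18 to 0.10, both turning without horse 27 or its liver. The log2 ratio of miR-143 and miR-145 to the other 3 was 0.38 in heart over liver with equal weight of each miRNA (0.88 with sums). With sums it ran from 0.71 to 1.06 without single horses, from 0.74 to 1.26 in lung over liver and from 0.02 to 0.40 in lung over heart. The planned tests on reads were not run, since the reads were only derived here from normalized values. With 4 horses, the SE of a log2 fold change was 0.20 to 0.42. Values of about 2 SE, such as -0.42 for miR-199a-5p in lung versus heart and 0.87 for miR-145 in lung versus liver, did not pass. Both also lay below the fold minimum of 1. A difference that was not called is thus not shown to be absent.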
